A study of Mus musculus with 3 samples.

Results

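Thbs1, Fn1, Tgfbi, Sparc, Postn, Tnc and Vtn are 7 genes of secreted glycoproteins that make up provisional matrix or bind to it, among the 19091 genes of the mouse liver Drop-seq tables. They were chosen by name. All 7 had a UMI (a uniquely tagged mRNA molecule) in cells of the library labelled control, while 6 did in each of the others, where Tnc (1 day) or Postn (7 days) had none. Drop-seq pairs single cells with barcoded beads in droplets and counts molecules per gene and barcode. A barcode was taken as a cell when it held at least 200 genes, and a level is the sum of a gene's UMIs over the cells, scaled to 1000000 UMIs of those cells (counts scaled in this way are written CPM).

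The study asked which cells and transcripts accompany the movement of matrix into an injured liver. Adult C57BL/6 mice received irreversible electroporation (IRE), a series of 8 electric pulses of 50 ms, 1 s apart, that permeabilizes cell membranes and kills hepatocytes. The labels give 75 V, and the study's methods name a lower voltage. Injured areas were taken with a 4 mm punch 1 day (IRE_1d) or 7 days (IRE_7d) postinjury (p.i.), and the control is labelled as sham surgery with sacrifice after 1 day, whereas the methods describe an equivalent uninjured area. No genetic change or drug is named for any group. Tissue was digested with dispase, collagenase and DNase, strained and freed of red cells, and 3 livers were pooled into 1 library per group. There is therefore no replicate library, no test could be made, and every interval given here is a 95% interval for counting error only, exact Poisson for a level, exact binomial for a share and conditional binomial for a ratio.

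Provisional matrix is the first scaffold of a wound. Fibronectin and vitronectin circulate in plasma, are made largely by hepatocytes, and join fibrin in the clot, where integrins of incoming cells grip them. Fibronectin is also made locally by fibroblasts and macrophages. Matricellular proteins such as thrombospondin 1, SPARC, periostin and tenascin C add little mechanical strength and instead modify adhesion, growth factor activity and collagen assembly, and they are typically low in resting adult tissue and raised around wounds.

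The libraries held 10386 (control), 9253 (1 day) and 5624 (7 days) cells with 8013800, 6107866 and 3058967 UMIs, a median of 595, 509 and 456.5 UMIs per cell. The labels estimate 1000 cells behind each portion of cDNA that was tagmented, fewer than the barcodes that passed. Barcodes under 200 genes took 20.1%, 28.7% and 33.2% of all UMIs, and 44 to 149 cell barcodes were shared between any pair of libraries. The marker contents of the libraries went against their labels. Hepatocyte markers summed to 1269, 26749 and 252 CPM (control, 1 day, 7 days), endothelial markers to 1619, 4821 and 232, and neutrophil markers to 3955, 719 and 42753. Mesenchymal markers summed to 2346, 68.4 and 16.0, and 8 stomach genes to 45.0, 2.29 and 1.63. The library labelled 1 day thus carried the most hepatocyte and endothelial RNA and the least neutrophil RNA, and the library labelled control carried nearly all of the mesenchymal RNA. Whether labels and libraries match was not tested, no library was reassigned, and each is named below by its label only. Every direction between libraries depends on those labels.

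The 7 genes did not share a pattern over the libraries, and their makeup differed between them. Together they gave 1526 CPM (1499 to 1553) in the library labelled control, 957 (933 to 982) in the library labelled 1 day and 3155 (3092 to 3218) in the library labelled 7 days. Sparc made up 67.0% of the members' UMIs in the library labelled control. Sparc (47.5%) and Vtn (36.0%) led in the library labelled 1 day, and Thbs1 (55.3%) and Tgfbi (29.1%) in the library labelled 7 days. In library sums, fewer cells of a type and less RNA per cell cannot be told apart. The levels by cell class given below separate them in part.

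**Figure D1:**
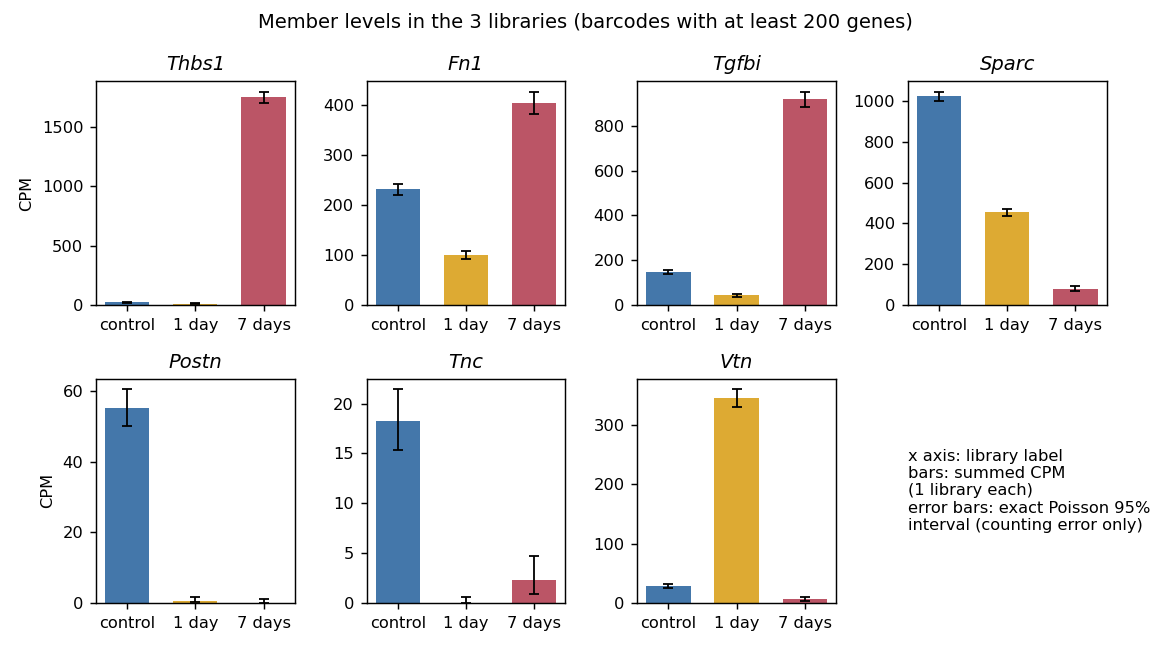
Each panel plots 1 gene in CPM (linear axis from 0) for the 3 libraries by label, with 95% Poisson intervals for counting error. Thbs1 stood at 1745 in the library labelled 7 days against 24.5 and 12.8 in the others, while Sparc, Postn and Tnc were highest in the library labelled control and Vtn in the library labelled 1 day.

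A gene was counted as higher or lower when its level differed at least 2-fold and it had at least 20 UMIs in both libraries together. Between the library labelled 1 day and that labelled control, Vtn was higher and 5 of 7 members (Fn1, Tgfbi, Sparc, Postn, Tnc) were lower, where 13.6% of all 12988 genes were higher and 7.14% lower. Between the libraries labelled 7 days and control, Thbs1 and Tgfbi were higher and Sparc, Postn, Tnc and Vtn lower, against 8.79% and 26.3% of 12074 genes. Between the libraries labelled 7 days and 1 day, 3 members (Thbs1, Tgfbi, Fn1) were higher and 2 (Sparc, Vtn) lower of the 5 with enough UMIs, against 11.3% and 31.8% of 12116 genes. The median gene shifted by 0.05, -0.29 and -0.32 on the log2 scale in these comparisons, and the members' median by -1.21, -2.25 and 2.01.

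Cells were also placed in classes by 8 marker genes each, none of them a member. A cell took the class of which it showed the most markers, at least 2, and hepatocytes were called when their markers made up at least 5% of the UMIs. The classes are named after their markers only, as mesenchymal-like, monocyte-like and so on, and wound macrophage-like cells were gated by genes such as Arg1, Ccl2, Gpnmb and Trem2. The genes most enriched in that class over all other cells differed between libraries. Mmp12, Gpnmb and Atp6v0d2 led labelled control, and Ccl7, Ccl12 and Gpnmb labelled 7 days. Ratios between libraries in this class thus need not compare the same kind of macrophage. Between 20% and 27.7% of cells fell in no class. T or NK-like cells are given beside the other classes as a comparison, and whether they make any of these glycoproteins was not tested. The library labelled control held 423 mesenchymal-like, 25 mesothelial-like and 1399 endothelial-like cells. The library labelled 1 day held 336 hepatocyte-like and 3392 endothelial-like cells but only 8 mesenchymal-like cells. The library labelled 7 days held 3115 neutrophil-like, 753 monocyte-like and 387 wound macrophage-like cells, with 40 endothelial-like and 1 mesenchymal-like cell. Some classes were mixed. Labelled 1 day, 96 of the 167 monocyte-like cells had just 2 markers. Igha, Igj and the dendritic gate marker Siglech were among the genes most enriched in that class. Labelled control, the stomach genes Tff1, Tff2, Gkn1 and Gkn2 were among those most enriched in cholangiocyte-like cells. Levels are given for classes of at least 20 cells.

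**Figure D2:**
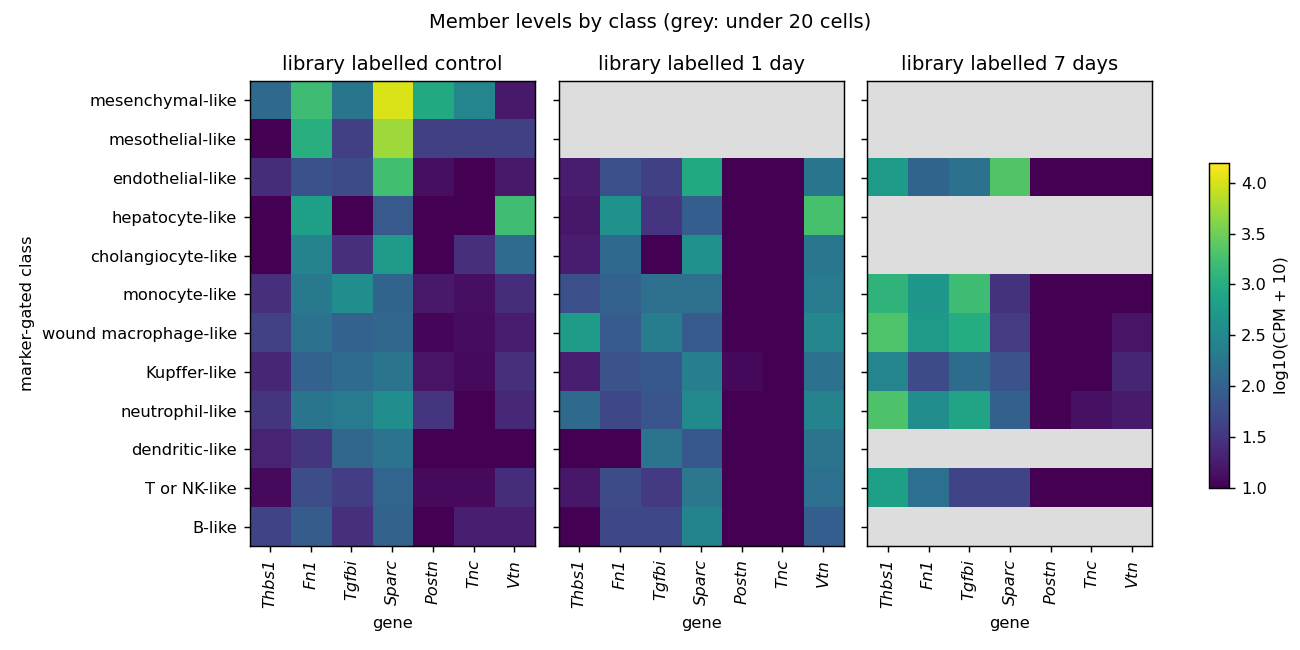
Each panel is a library by label, with classes as rows, the 7 genes as columns and the shade showing CPM on a log scale (grey, under 20 cells). Sparc, Fn1, Postn and Tnc peaked in the mesenchymal-like row of the library labelled control, Vtn in the hepatocyte-like rows, and Thbs1 and Tgfbi in the myeloid rows of the library labelled 7 days.

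Thbs1 encodes thrombospondin 1, a trimeric glycoprotein released by platelets and many stressed cells, which binds CD36 and CD47 and can activate latent TGF-beta. It gave 196 UMIs in the library labelled control (24.5 CPM, 21.2 to 28.1), 78 in that labelled 1 day (12.8, 10.1 to 15.9) and 5338 in that labelled 7 days (1745, 1699 to 1792), where it ranked 52 among all genes. The library labelled 7 days thus stood far above both others. Its level was 71.3-fold that of the library labelled control (61.9 to 82.7) and 137-fold that of the library labelled 1 day (109 to 173). The level labelled 1 day was 1.92-fold below that labelled control (1.47 to 2.52), short of the 2-fold limit. Labelled 7 days, 43.6% of all cells held at least 1 Thbs1 UMI and no cell held more than 14, so that its UMIs were spread over many cells, whereas the top 1% of cells held 82.7% of them in the library labelled control.

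Within the library labelled 7 days, Thbs1 was present in each of the 6 classes of at least 20 cells. Wound macrophage-like cells had 2095 CPM (1908 to 2295) and neutrophil-like cells 2017 (1948 to 2088), a ratio of 1.04 (0.940 to 1.15) that counting error covers. Monocyte-like cells followed at 1179 (1082 to 1283), T or NK-like cells at 650 (392 to 1016), endothelial-like cells at 578 (299 to 1009) and Kupffer-like cells at 272 (174 to 405). Barcodes under 200 genes carried 2165 (2092 to 2240), as much as the highest classes. Set against T or NK-like cells, the wound macrophage-like level was 3.22-fold (2.04 to 5.40), the neutrophil-like level 3.10-fold (1.98 to 5.16) and the monocyte-like level 1.81-fold (1.15 to 3.03) higher. The endothelial-like level was within counting error of theirs (0.888, 0.393 to 1.93), and the Kupffer-like level was lower (0.419, 0.220 to 0.808). The T or NK-like level rests on 19 UMIs in 10 cells, with up to 6 in 1 cell, and where they come from was not tested.

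The share of cells with a Thbs1 UMI was 54.0% in wound macrophage-like cells (median 495 UMIs per cell), 47.6% in neutrophil-like cells (441), 35.7% in monocyte-like cells (524), 20% in endothelial-like cells (435), 15.4% in T or NK-like cells (390) and 13.9% in Kupffer-like cells (553). When cells were thinned to 300 UMIs the shares were 39.8%, 37.9% and 24.7% in the first 3 and 8.0% in T or NK-like cells, with 23, 266, 73 and 15 shallower cells left out. In endothelial-like cells it was 22.9% of 35 cells and in Kupffer-like cells 5.88% of 102.

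Platelets carry thrombospondin 1, and the sum of 8 platelet markers was also highest in the library labelled 7 days. It was 358 (control), 220 (1 day) and 1102 CPM (7 days). Labelled 7 days, 6 of the 8 had a UMI, Gp9 and Treml1 were at 0, and all but 8 of the UMIs came from Pf4 and Ppbp. The other 6 markers were lowest there, with 46, 156 and 8 UMIs in the same order. Pf4 labelled 7 days was 3251 CPM in wound macrophage-like, 694 in neutrophil-like and 68.5 in T or NK-like cells. Whether Pf4 and Ppbp follow platelets in this library was not tested. In cells without a UMI of any platelet marker, a check added after the data were seen, Thbs1 was as high, at 1687 CPM (1636 to 1739) over 4708 cells, 2124 (1873 to 2400) in wound macrophage-like cells and 1995 (1920 to 2071) in neutrophil-like cells.

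The class levels were low in the other libraries. Monocyte-like cells had 17.6 CPM labelled control and 51.3 labelled 1 day, the latter from 5 UMIs in 2 cells. It was 105 when at least 3 markers were asked for and 11.3 without the 5% of cells with the most UMIs. Neutrophil-like cells had 21.1 labelled control and 119 labelled 1 day (8 and 6 UMIs). Between the libraries labelled 7 days and control, Thbs1 was 67.0-fold higher in monocyte-like cells (44.5 to 105), 65.9-fold in wound macrophage-like cells (43.4 to 105), 95.7-fold in neutrophil-like cells (48.5 to 222) and 23.1-fold in Kupffer-like cells (11.9 to 45.8). T or NK-like cells differed as well, by 321-fold (51.0 to 13338), from 1 UMI labelled control and 19 labelled 7 days, and the Kupffer-like level labelled 7 days was below theirs. How much of these differences lies inside the cells of each class, and how much in the kinds of cell that a class holds, was not tested. Labelled 1 day, the 27 wound macrophage-like cells held 8 UMIs of Thbs1, a level of 581 (251 to 1144), above the other classes there, but 20 of these cells had just 2 markers, and under 20 cells were left when 3 were asked for. Labelled control, the highest level, 118 (88.5 to 155), was in mesenchymal-like cells, and it was 53.9 when the 5% of cells with the most UMIs were left out.

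S100a8, a neutrophil alarmin and 1 of the gate markers, stood at 44662 CPM in barcodes under 200 genes of the library labelled 7 days, so the gate was also run without such genes. With S100a8, S100a9 and Retnlg removed from the gate, an alternative added after the data were seen, 1002 neutrophil-like cells were left, with 2377 CPM of Thbs1 (2243 to 2517). Wound macrophage-like cells then numbered 908 and stood at 2432 (2301 to 2570), and T or NK-like cells at 605 (438 to 814). In 174 cells with at least 3 of the remaining 5 neutrophil markers and no monocyte or macrophage marker, Thbs1 was 2084 (1787 to 2417). In 1254 cells of the opposite kind it was 1599 (1507 to 1696). Thbs1 stayed high on both sides of this split, which was also chosen after the data were seen. In 191 cells of neither kind, with none of these 5 markers and no monocyte or macrophage marker, Thbs1 was 829 (634 to 1064).

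**Figure D3:**
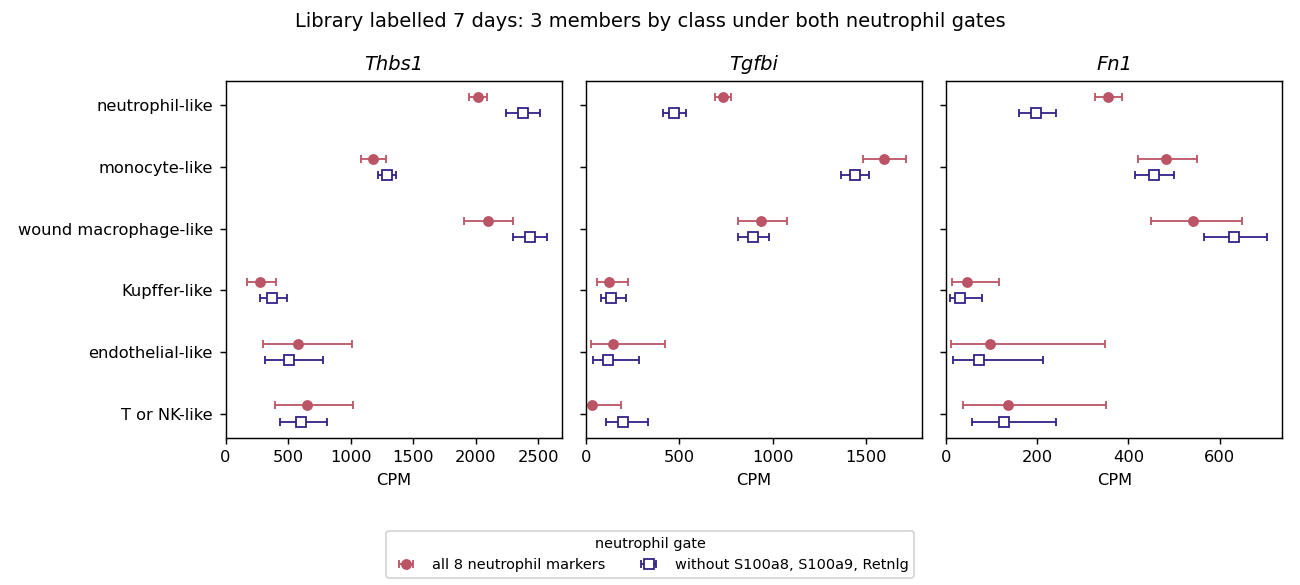
Points give CPM of Thbs1, Tgfbi and Fn1 by class in the library labelled 7 days under both neutrophil gates, with 95% Poisson intervals. With the change of gate Thbs1 went from 2017 to 2377 in neutrophil-like and from 2095 to 2432 in wound macrophage-like cells, while neutrophil-like Fn1 went from 355 to 198 and Tgfbi from 734 to 471.

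Tgfbi encodes transforming growth factor beta-induced protein, a secreted adapter between collagen and integrins, and a relative of periostin in its fasciclin domains. It gave 1177 UMIs labelled control (147 CPM, 139 to 156), 268 labelled 1 day (43.9, 38.8 to 49.5) and 2806 labelled 7 days (917, 884 to 952). It was 3.35-fold lower labelled 1 day than labelled control (2.93 to 3.84) and 6.25-fold higher labelled 7 days (5.83 to 6.69). Like Thbs1, it was highest in the library labelled 7 days and lowest in that labelled 1 day.

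Unlike Thbs1, Tgfbi was highest in monocyte-like cells in the library labelled 7 days, at 1593 CPM (1480 to 1713). Wound macrophage-like cells had 938 (814 to 1075), neutrophil-like cells 734 (693 to 777) and Kupffer-like cells 125 (62.3 to 223). T or NK-like cells held 1 Tgfbi UMI among 65 cells, and 14 UMIs among 148 cells (197 CPM) under the other neutrophil gate. Monocyte-like cells also led in the library labelled control, at 362 (331 to 396), where T or NK-like cells had 28.4. A Tgfbi UMI was seen in 51.0% of monocyte-like cells labelled 7 days and 1.54% of T or NK-like cells, or 34.4% and 2.00% after thinning. Between the libraries labelled 7 days and control Tgfbi was 4.4-fold higher in monocyte-like cells (3.92 to 4.94), 10.3-fold in wound macrophage-like cells (7.76 to 13.8) and 3.82-fold in neutrophil-like cells (3.01 to 4.90). In Kupffer-like cells the ratio was 1.04 (0.510 to 1.91).

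The split by neutrophil markers and by monocyte or macrophage markers put Tgfbi and Fn1 on the side of the latter, and Thbs1 slightly on the other. In the 174 cells with neutrophil but no monocyte or macrophage markers, Tgfbi was 381 (261 to 538). That was 3.37-fold lower (2.37 to 4.96) than the 1285 (1202 to 1372) of the 1254 cells of the opposite kind. Those 1254 cells had none of the 5 neutrophil markers kept for the split. They were not free of all neutrophil markers, since S100a8 was seen in 88.0% of them, at 6849 CPM against 70230 in the 174 cells. Fn1 was 107 (49.0 to 204) against 587 (531 to 646), 5.47-fold lower (2.85 to 12.1). Thbs1 was 1.30-fold higher (1.10 to 1.53). The 1254 cells pool monocyte and macrophage markers, and Thbs1 was 1179 CPM in monocyte-like and 2095 in wound macrophage-like cells. Neutrophil-like cells, at 2017, did not exceed the wound macrophage-like cells. Of the cells labelled 7 days, 423 of the 1484 neutrophil-like cells with Thbs1 also held Tgfbi, as did 151 of 269 such monocyte-like cells and 80 of 209 wound macrophage-like cells. If Thbs1 and Tgfbi were independent within a class, 383, 137 and 74.0 cells would hold both, so the overlap was not far above that.

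Fn1 encodes fibronectin, a dimer that cells stretch into fibrils and on which collagen and other matrix proteins are laid down. It gave 1852 UMIs labelled control (231 CPM, 221 to 242), 610 labelled 1 day (99.9, 92.1 to 108) and 1233 labelled 7 days (403, 381 to 426). Its range was the narrowest of the members, 2.31-fold lower labelled 1 day than control (2.11 to 2.54) and 1.74-fold higher labelled 7 days (1.62 to 1.88), which made the level labelled 7 days 4.04-fold that labelled 1 day (3.66 to 4.45).

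Behind this narrow range, different classes carried Fn1 in each library. Labelled control, mesenchymal-like cells stood at 1616 CPM (1501 to 1738) and held 39.1% of the UMIs, followed by mesothelial-like cells at 1037 (718 to 1449) and hepatocyte-like cells at 655 (483 to 868). Labelled 1 day, hepatocyte-like cells stood at 420 (372 to 471) and held 46.4%. Labelled 7 days, wound macrophage-like cells stood at 542 (449 to 648) and monocyte-like cells at 483 (422 to 551), and the neutrophil-like class held 46.1% of the UMIs at 355 (327 to 386). Fn1 in T or NK-like cells was 46.6, 43.8 and 137 in the same order, the last from 4 UMIs. Fn1 was 3.73-fold higher labelled 7 days than control in wound macrophage-like cells (2.85 to 4.90) and 2.55-fold in monocyte-like cells (2.13 to 3.07). In endothelial-like cells it was 54.8 labelled control and 51.1 labelled 1 day, close to the T or NK-like levels.

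Sparc encodes osteonectin, a calcium and collagen binding protein that is needed for orderly collagen fibrils. It was the most abundant member labelled control, with 8191 UMIs (1022 CPM, 1000 to 1044), against 2780 labelled 1 day (455, 438 to 472) and 248 labelled 7 days (81.1, 71.3 to 91.8). It was 2.25-fold lower labelled 1 day than control (2.15 to 2.35) and 12.6-fold lower labelled 7 days (11.1 to 14.4). The share of cells with a Sparc UMI was nevertheless 19.8% labelled control and 21.5% labelled 1 day, and 2.52% labelled 7 days. Labelled control, 39.9% of the UMIs lay in the 1% of cells richest in it.

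Sparc followed mesenchymal-like and endothelial-like cells. Labelled control, mesenchymal-like cells stood at 10520 CPM (10222 to 10824) and held 57.6% of the Sparc UMIs, mesothelial-like cells at 5398 (4632 to 6255), and endothelial-like cells at 1715 (1631 to 1802). T or NK-like cells there had 99.3 and monocyte-like cells 96.1, so these did not differ beyond counting error. A Sparc UMI was seen in 92.9% of mesenchymal-like cells (median 801 UMIs), 57.3% of endothelial-like cells (538) and 5.86% of T or NK-like cells (569), or 84.6%, 40.1% and 2.46% after thinning. In endothelial-like cells alone Sparc was 859 (819 to 901) labelled 1 day and 2118 (1539 to 2844) labelled 7 days, the latter from 44 UMIs in 40 cells. The endothelial-like level labelled 1 day was 2.00-fold below that labelled control (1.86 to 2.14), whereas that labelled 7 days did not differ from control beyond counting error (ratio 1.24, 0.894 to 1.67). The low library sum labelled 7 days thus stood beside 1 mesenchymal-like and 40 endothelial-like cells, and the endothelial-like level was not low. In the myeloid classes Sparc was lower labelled 7 days than control. The ratio was 0.237 in neutrophil-like, 0.203 in monocyte-like, 0.354 in Kupffer-like and 0.267 in wound macrophage-like cells. In T or NK-like cells the ratio was 0.345 (0.00856 to 2.01), from 49 UMIs labelled control and 1 labelled 7 days. Barcodes under 200 genes also went down, from 388 CPM labelled control to 34.2 labelled 7 days. The parts of cell numbers and of levels per cell in the low sum were not tested. The neutrophil-like class held 55.2% of the Sparc UMIs labelled 7 days at only 85.5 CPM, and 22.3 under the gate without S100a8, S100a9 and Retnlg. In 191 cells of that library Sparc was 652 (481 to 865). These cells had no monocyte or macrophage marker and none of the neutrophil markers that this gate kept. They were not free of all neutrophil markers, since S100a8 was seen in 77.5% of them, at 12254 CPM.

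Postn and Tnc encode periostin, which promotes collagen cross-linking, and tenascin C, a six-armed protein that loosens adhesion to fibronectin. Both are textbook genes of activated fibroblasts. Postn gave 441 UMIs labelled control (55.0 CPM, 50.0 to 60.4), 4 labelled 1 day (0.655, 0.178 to 1.68) and 0 labelled 7 days, where 3 counts would be 0.981 CPM. Tnc gave 146 (18.2, 15.4 to 21.4), 0 and 7 (2.29, 0.92 to 4.71). Both were thus found nearly only in the library labelled control. Against it, Postn was 84.0-fold lower labelled 1 day (32.6 to 310). Labelled 7 days it was 56.1-fold lower with 3 counts put in place of 0, and the interval of the ratio allows as little as 45.4-fold. Tnc was 37.1-fold lower labelled 1 day with 3 counts put in place of 0, where the interval allows as little as 29.8-fold. It was 7.96-fold lower labelled 7 days (3.77 to 20.2). Of the 7 Tnc UMIs labelled 7 days, 5 came from 1 cell.

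These genes were alike in class too. Mesenchymal-like cells held 87.3% of the Postn UMIs labelled control, at 858 CPM (775 to 948), and 84.2% of the Tnc UMIs, at 274 (228 to 327). No other class exceeded 30.5 for either gene. T or NK-like cells held 1 UMI of each. Postn was seen in 26.5% of mesenchymal-like cells (22.3% to 31.0%) and Tnc in 13% (9.95% to 16.6%), or 17.3% and 5.12% after thinning. In T or NK-like cells each was seen in 0.143%. Of the 112 mesenchymal-like cells with Postn 31 also held Tnc, which is 27.7% of the Postn cells and 56.4% of the 55 Tnc cells. If Postn and Tnc were independent in this class, 14.6 cells would hold both. The part of depth in this overlap was not tested. Mesenchymal-like cells numbered only 8 labelled 1 day and 1 labelled 7 days, so Postn and Tnc per mesenchymal-like cell cannot be compared between libraries.

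The bases before the Postn and Tnc start sites are shown because these genes shared both library and class. RefSeq promoter windows (GRCm38.p6) matched 5 members, Tgfbi, Sparc, Postn, Tnc and Vtn, in 7 windows, and Thbs1 and Fn1 were not matched. The 100 bases before the start are printed 5′ to 3′ on the gene's strand, with the letters TATATAA in capitals, for Postn at chr3:54361007-54361106 (plus strand) and for Tnc at chr4:64046937-64047036 (minus strand).
Postn: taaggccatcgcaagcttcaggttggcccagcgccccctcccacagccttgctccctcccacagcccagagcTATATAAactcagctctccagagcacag
Tnc: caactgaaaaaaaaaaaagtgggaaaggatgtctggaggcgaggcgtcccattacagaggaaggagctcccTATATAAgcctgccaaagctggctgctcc
Postn and Tnc each have another window, at chr3:54359167-54359266 and chr4:64047016-64047115, that does not hold these letters. The run begins 28 bases before the start in Postn and 29 in Tnc. Searched on both strands, TATATAA was in 2 of the 7 member windows and in 458 of all 32851 windows of the same length (1.39%). The letters were chosen after the sequences had been seen, and the match is a description of the sequence alone.

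Within the 423 mesenchymal-like cells labelled control, Postn and Tnc were uneven. Cells were divided by a UMI of Aspn (asporin, a small proteoglycan) and of Dpt (dermatopontin), a division made after values had been seen, and Dpt was also a gate marker. The 54 cells with both had 2697 CPM of Postn (2362 to 3066), against 218 (164 to 284) in the 258 cells with neither, a ratio of 12.4 (9.18 to 17.0). The 95 cells with Dpt alone lay between, at 777 (611 to 974). Tnc was 741 (570 to 946) with both and 153 (108 to 210) with neither, a ratio of 4.84 (3.19 to 7.43), and 155 (87.0 to 256) with Dpt alone, a ratio of 1.01 to the cells with neither (0.519 to 1.89).

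Over the same cells Sparc and Thbs1 were also uneven, and Fn1 was not. Sparc was 16967 (16110 to 17858) with both markers and 7630 (7291 to 7982) with neither, a ratio of 2.22 (2.08 to 2.38). Thbs1 was 336 (225 to 482) against 80.6 (49.2 to 125), a ratio of 4.16 (2.28 to 7.76). Fn1 hardly varied, at 1852 (1576 to 2162) and 1592 (1439 to 1757), a ratio of 1.16 (0.962 to 1.40). Tgfbi was 69.4 (25.5 to 151) and 161 (115 to 220), a ratio of 0.431 (0.149 to 1.02). The cells with both markers were deeper, with a median of 1198 UMIs against 783.5, and the part of depth in these differences was not tested.

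**Figure D4:**
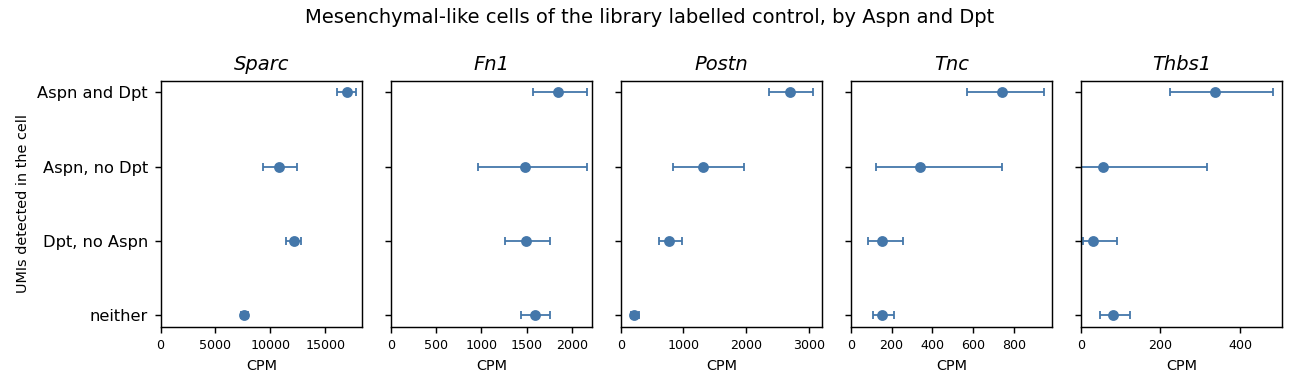
Points give CPM of each gene in the mesenchymal-like cells of the library labelled control, divided by whether a UMI of Aspn or Dpt was detected, with 95% Poisson intervals. Postn was 12.4-fold and Tnc 4.84-fold higher in cells with both than with neither, while Fn1 differed by 1.16-fold, within counting error.

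Vtn encodes vitronectin, a plasma glycoprotein of hepatocytes that binds integrins and the urokinase receptor. It gave 224 UMIs labelled control (28.0 CPM, 24.4 to 31.9), 2107 labelled 1 day (345, 330 to 360) and 18 labelled 7 days (5.88, 3.49 to 9.30). It was 12.3-fold higher labelled 1 day than control (10.7 to 14.2) and 4.75-fold lower labelled 7 days (2.94 to 8.16), an order over the libraries that no other member had. Hepatocyte markers ran in the same order (1269, 26749 and 252 CPM).

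Within hepatocyte-like cells the CPM of Vtn did not differ between the libraries labelled control and 1 day beyond counting error. Vtn in hepatocyte-like cells was 1664 CPM (1382 to 1987) labelled control and 1831 (1730 to 1936) labelled 1 day, a ratio of 1.10 (0.913 to 1.34). These cells differed in their median share of hepatocyte-marker UMIs, 7.93% labelled control and 13.4% labelled 1 day. Per 1000 such UMIs Vtn was higher labelled control, at 18.4 (15.3 to 22.0), than labelled 1 day, at 12.8 (12.1 to 13.5). Hepatocyte-like cells held 54.5% and 58.6% of the Vtn UMIs, and 77.4% of those labelled 1 day had one, or 38.9% after thinning. Their number changed from 29 to 336, with 4 labelled 7 days. A further 204 cells labelled 1 day had 3% to 5% of their UMIs in hepatocyte markers, just under the cut.

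Elsewhere in the library labelled 1 day, Vtn was set against hepatocyte RNA. It was 164 CPM in endothelial-like cells, 152 in Kupffer-like cells and 138 in T or NK-like cells, with a Vtn UMI in 8.96%, 9.27% and 7.42% of them. Per 1000 UMIs of the 8 hepatocyte markers, Vtn gave 12.8 (12.1 to 13.5) in hepatocyte-like cells, 12.8 (11.5 to 14.3) in endothelial-like cells, 14.1 (12.4 to 15.9) in Kupffer-like cells, 11.1 (6.93 to 16.7) in T or NK-like cells and 13 (12.0 to 14.1) in barcodes under 200 genes. The classes with fewer UMIs ran from 5.87 (2.15 to 12.8) in B-like cells to 21.4 (5.83 to 54.8) in wound macrophage-like cells, with monocyte-like cells at 16.8, neutrophil-like cells at 17.3, dendritic-like cells at 18.0 and cholangiocyte-like cells at 15.6. Labelled control, the ratio was 18.4 (15.3 to 22.0) in hepatocyte-like cells and higher in Kupffer-like cells, at 45.8 (29.9 to 67.1), from 26 UMIs. Monocyte-like cells there had 44.1 (27.6 to 66.8), from 22 UMIs, and T or NK-like cells 45.5 (19.6 to 89.6), from 8 UMIs. The ratio was 18.8 in endothelial-like cells, 21.1 in neutrophil-like cells and 20.4 in barcodes under 200 genes, close to the hepatocyte-like value. Fn1 gave 2.93 (2.60 to 3.29) per 1000 marker UMIs in hepatocyte-like cells labelled 1 day and 5.09 (4.1 to 6.25) in Kupffer-like cells, and labelled control it gave 7.24 (5.34 to 9.60) in hepatocyte-like cells, 517 (456 to 584) in monocyte-like cells and 6197 (5754 to 6665) in mesenchymal-like cells.

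**Figure D5:**
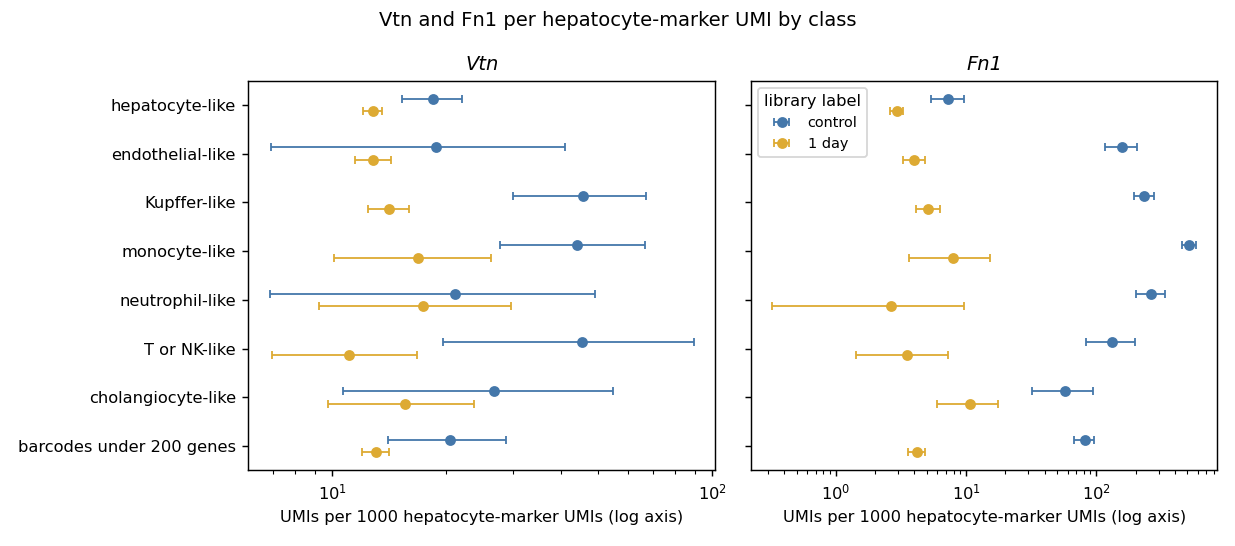
Points give Vtn and Fn1 UMIs per 1000 hepatocyte-marker UMIs by class and library label (log axis) with 95% Poisson intervals. In the library labelled 1 day, Vtn lay between 11.1 and 14.1 in hepatocyte-like, endothelial-like, Kupffer-like and T or NK-like cells, while Fn1 labelled control ran from 7.24 in hepatocyte-like to 6197 in mesenchymal-like cells.

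Relatives, receptors and partners of the members were read from lists chosen for function. Of 25 relatives with enough UMIs, 4 were higher and 21 lower labelled 7 days than control, where 8.79% and 26.3% of all genes were, with a median log2 ratio of -2.93 (-2.66 with genes at 0 set to 3 counts) against -0.29 for all genes. The 4 higher were osteopontin Spp1 (7.16-fold), the matrix protein Ecm1 (6.27-fold), the elastin-associated Emilin2 (4.94-fold) and galectin 3, Lgals3 (3.36-fold). The fibrinogen chains Fga, Fgb and Fgg, which form the clot, were among the 21 lower, with Fgb at 163 and 25.8 CPM. Fbln2, a fibulin of connective tissue, went from 76.4 to 5.56. Labelled 1 day, 6 of 26 relatives were higher and 11 lower than control, against 13.6% and 7.14% of all genes, at a median of -0.47 against 0.05. Fga (6.70-fold), Fgb (6.93-fold) and Fgg (5.79-fold) were higher there, as was Vtn, while thrombospondin 2 (Thbs2, 7.24-fold) and Fbln1 (18.9-fold) were lower.

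Of 19 receptors with enough UMIs, 5 were higher and 4 lower labelled 7 days than control, against 8.79% and 26.3% of all genes, at a median of -0.30 against -0.29 for all genes. The urokinase receptor Plaur, which binds vitronectin, was 20.2-fold higher (16.7 to 24.6), the leukocyte integrin chains Itgam 5.42-fold (5.09 to 5.79) and Itgb2 2.68-fold (2.46 to 2.91), and the syndecans Sdc4 3.48-fold and Sdc1 2.72-fold. Itga9, Itgb3, Sdc3 and the endothelial scavenger receptor Stab2 were lower. The thrombospondin receptors Cd36 and Cd47 stayed within 2-fold in each comparison with control. Labelled 1 day, 4 of 21 receptors were higher and 1 (Itgam) lower than control, against 13.6% and 7.14% of all genes.

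Among the TGF-beta and plasminogen partners, transglutaminase Tgm2, which cross-links fibronectin, was 3.98-fold higher labelled 7 days than control (3.69 to 4.28). Tgfb2, Tgfb3, Ltbp4, Plat and Plg were lower. Labelled 1 day, Ltbp4 and the plasminogen gene Plg were higher than control (2.62-fold and 13.7-fold) and Ltbp1, Plat and Tgfb3 lower.

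Which genes were most like each member was described by Pearson's r over 23 class and library strata of at least 50 cells. The strata share libraries, free RNA and depth, so r carries no p. Thbs1 was most like Agpat9 (0.93), the chemokine Cxcl3 (0.92) and the glycolytic enzyme Pgk1 (0.92). Tgfbi was most like Sirpb1c (0.91), the lectin Clec4e (0.88) and Chi3l3 (0.87). Sparc was most like the cell cycle inhibitor Cdkn1c (0.93), Ptrf (0.92) and Csrp2 (0.91). For Fn1 the closest were Hdlbp (0.76), Gm4540 (0.76) and Ppapdc1b (0.75), the weakest likeness of the members.

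Postn was most like fibulin 1, Fbln1 (1.00), the mesenchymal cadherin Cdh11 (0.99) and Ltbp2 (0.99). Tnc was most like the gate marker Pdgfra (0.97), Mmp23 (0.96) and Plat (0.96). Mesenchymal-like cells entered the strata only from the library labelled control. Postn was 858 CPM there and at most 21.1 in the other strata, and Tnc 274 and at most 17.2. The r values of Postn and Tnc thus rest largely on that stratum. Hepatocyte-like cells entered only from the library labelled 1 day. Vtn was most like Nrn1 (0.98) and Gc, the vitamin D-binding protein of hepatocytes (0.97). Among the members the closest pairs were Postn and Tnc (0.90), Thbs1 and Tgfbi (0.71) and Sparc and Postn (0.68).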

How the data were processed

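Livers of adult C57BL/6 mice were measured by Drop-seq in 3 libraries of 3 pooled livers each, grouped by their labels. The deposited tables hold whole-number UMI counts per gene and barcode, not normalized, which the authors made with Drop-seq tools. The file headers give a read quality minimum, sense-strand counting and coding plus untranslated exons. The submitters' processing notes name STAR 2.5.2a and the build hg19, a human build, for mouse samples. The step for which it was used is not given in the sources used here, and gene names were used as listed.

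Barcodes with at least 200 genes were taken as cells, although the tables also list barcodes with as few as 11 genes. Counts were summed per library and per marker-gated class and scaled to 1000000 UMIs (CPM). Intervals came from scipy 1.17.1 with numpy 2.4.6 and pandas 2.3.3 in Python 3.11.15, at 95%, and cover counting error only. Genes past 2-fold with at least 20 UMIs in both libraries together were counted. A gene at 0 was compared against 3 counts. Shares of cells were repeated after thinning each cell to 300 UMIs. No doublet caller was run, and levels were recomputed without the 5% of cells with the most UMIs. The hepatocyte cut of 5% was set from the distribution of marker shares. The members and gene lists were chosen with earlier results of these data known. Members were named in every library and in each class of 20 or more cells, other listed genes only when past 2-fold, and genes most like a member as the 3 of highest r of log2(CPM + 10). The counting was tested on simulated data. Cd36 and Cd47, within 2-fold, and the cells split by Aspn and Dpt were named after their values were seen. Some values of the partner list and of the likeness to Vtn are not reported here.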

Additional observations from a re-analysis of the deposited data

Results flagged for a closer look

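Barcodes under 200 genes, which enter none of the levels by cell, carried some members far above the library labelled control. In them Thbs1 was 137-fold higher labelled 7 days than control (2165 and 15.9 CPM), Tgfbi 5.53-fold (548 and 99.1) and Fn1 4.19-fold (272 and 64.9). Vtn in the same barcodes was 14.4-fold higher labelled 1 day than control (236 and 16.3).

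Sparc went in opposite directions in different classes between the libraries labelled 7 days and 1 day, a difference that was not tested. The ratio was 2.47 in endothelial-like cells, which were 40 cells labelled 7 days, and 0.255 in Kupffer-like, 0.136 in monocyte-like and 0.269 in neutrophil-like cells. In T or NK-like cells it was 0.196 (0.00478 to 1.18), from 28 UMIs and 1 UMI. Labelled 1 day, the Kupffer-like, monocyte-like and neutrophil-like levels did not differ from T or NK-like cells beyond counting error (ratios of 1.27, 0.820 and 1.82).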

How the results depend on the processing

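No paired analysis was possible because each group has 1 pooled library, and for the same reason no replicate could be left out. The counts of members past 2-fold were recomputed under 7 alternatives and all 42 values stayed within 1.5 times of the reported count. No member's ratio between libraries changed direction. Ratios ran from 50.9 to 84.7 for Thbs1 and from 5.18 to 8.59 for Tgfbi (labelled 7 days over control), and from 12.2 to 14.0 for Vtn (labelled 1 day over control). Members near 2-fold crossed it. Sparc labelled 1 day was 1.66-fold lower than control without the 5% of cells with the most UMIs and 3.94-fold lower at a minimum of 500 genes, Thbs1 2.07-fold lower at 500 genes, and Fn1 labelled 7 days 2.07-fold higher than control without the 5%. Of 938 class levels under 5 alternatives, 53 moved beyond their interval, among them neutrophil-like Fn1 (355 to 198) and Tgfbi (734 to 471) under the added gate, and 17 of 21 shares of cells moved with thinning. For a member at 0, 3 counts are 0.491 CPM labelled 1 day and 0.981 labelled 7 days.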

Other observations

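Cells that fell in no class also carried the members. In the library labelled 7 days, 1124 such cells had 1673 CPM of Thbs1 (1573 to 1778), 1082 of Tgfbi (1001 to 1167) and 498 of Fn1 (444 to 557), and they held 19.4%, 23.9% and 25.1% of those genes' UMIs. In the library labelled control, 2876 such cells had 558 of Sparc (524 to 593), 207 of Fn1 (187 to 229) and 13.9 of Postn (9.06 to 20.3).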
